A study of Mus musculus with 4 samples.

Results

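Neurons extend axons and dendrites on a scaffold of microtubules, and 52 mouse genes of that machinery were examined in RNA-seq of the cerebral cortex at embryonic day 15. The genes were taken by symbol from a list chosen with earlier results of these data known. It holds tubulins, microtubule-binding proteins, growth cone proteins, neurofilaments, kinesins, membrane skeleton proteins and adhesion molecules, plus the neuronal nuclear protein Rbfox3. All 52 were found among the 13289 genes of the deposited count table. The table holds 2 control libraries, titled WT, and 2 Lhx2cKO libraries, written here as Lhx2 cKO, from fresh tissue and polyadenylated RNA. The conditional knockout targets Lhx2, a LIM-homeodomain transcription factor of cortical progenitors, and the series as a whole deals with how radial glia change over developmental time. The labels name neither the Cre driver nor the allele, nor what the control embryos carry, nor whether embryos were pooled. Nothing states that the 2 libraries of a group came from separate embryos. The p-values thus measure the spread between these libraries, largely pooled over genes, and that spread may be technical.

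Alpha and beta tubulin pair into the subunits of the microtubule. Doublecortin, tau (Mapt) and the other microtubule-associated proteins bind and stabilise the polymer, stathmins bind free tubulin and promote disassembly, and kinesins carry cargo along it. In newborn cortical neurons this machinery drives radial migration and the outgrowth of the leading process and the axon, and GAP43, CRMPs and L1-family adhesion molecules act at the growth cone membrane where it meets its surroundings.

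Total counts ranged from 22294237 to 24609627 per library. Lhx2 itself was at 316 and 287 CPM (counts scaled to library size) in control and at 239 and 247 CPM in Lhx2 cKO, with -0.31 as its log2 fold change (SE 0.0976, and in edgeR an adjusted p of 0.0191), lower in the libraries labelled as knockout. That call was lost without control 1 (adjusted p 0.176), without Lhx2 cKO 1 (0.102) and without Lhx2 cKO 2 (0.0538). Defining markers of the cerebral cortex were present in every library, and Eomes, Emx1, Pax6 and Neurod6 were among those called lower, with log2 fold changes of -1.66, -1.54, -1.24 and -0.32. CPM here are scaled with TMM factors, and a gene is said to be called when its Benjamini-Hochberg adjusted p in edgeR's quasi-likelihood test over all 13288 genes tested was under 0.05.

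Of the 52 genes, 16 were called, with 12 rising and 4 falling in Lhx2 cKO. The called share was 30.8%, against 20.8% of all genes tested. The share called higher was 23.1%, against 11.6% of all genes, and the share called lower was 7.69%, against 9.17%. Counts within single roles below are to be read beside these shares of all genes. The median log2 fold change was 0.13 over the 52 genes and 0.003 over all genes. Estimates were above 0 for 41 of the 52 genes, and for 6704 of all 13288. Nefl, Stmn4, Ncam1 and Stmn2 had the largest rises, and Map1a and Kif21b the largest falls. Values of the groups were fully separated for 35 of the 52 genes (67.3%, against 59.3% of all genes), including all 16 that were called. In the authors' deposited table, the same 16 genes have an adjusted p under 0.05, as do 20.5% of its rows. Taken as a share of each library's counts, the 52 genes made up 3.35% and 3.41% in the controls and 3.72% in both Lhx2 cKO libraries.

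**Figure D1:**
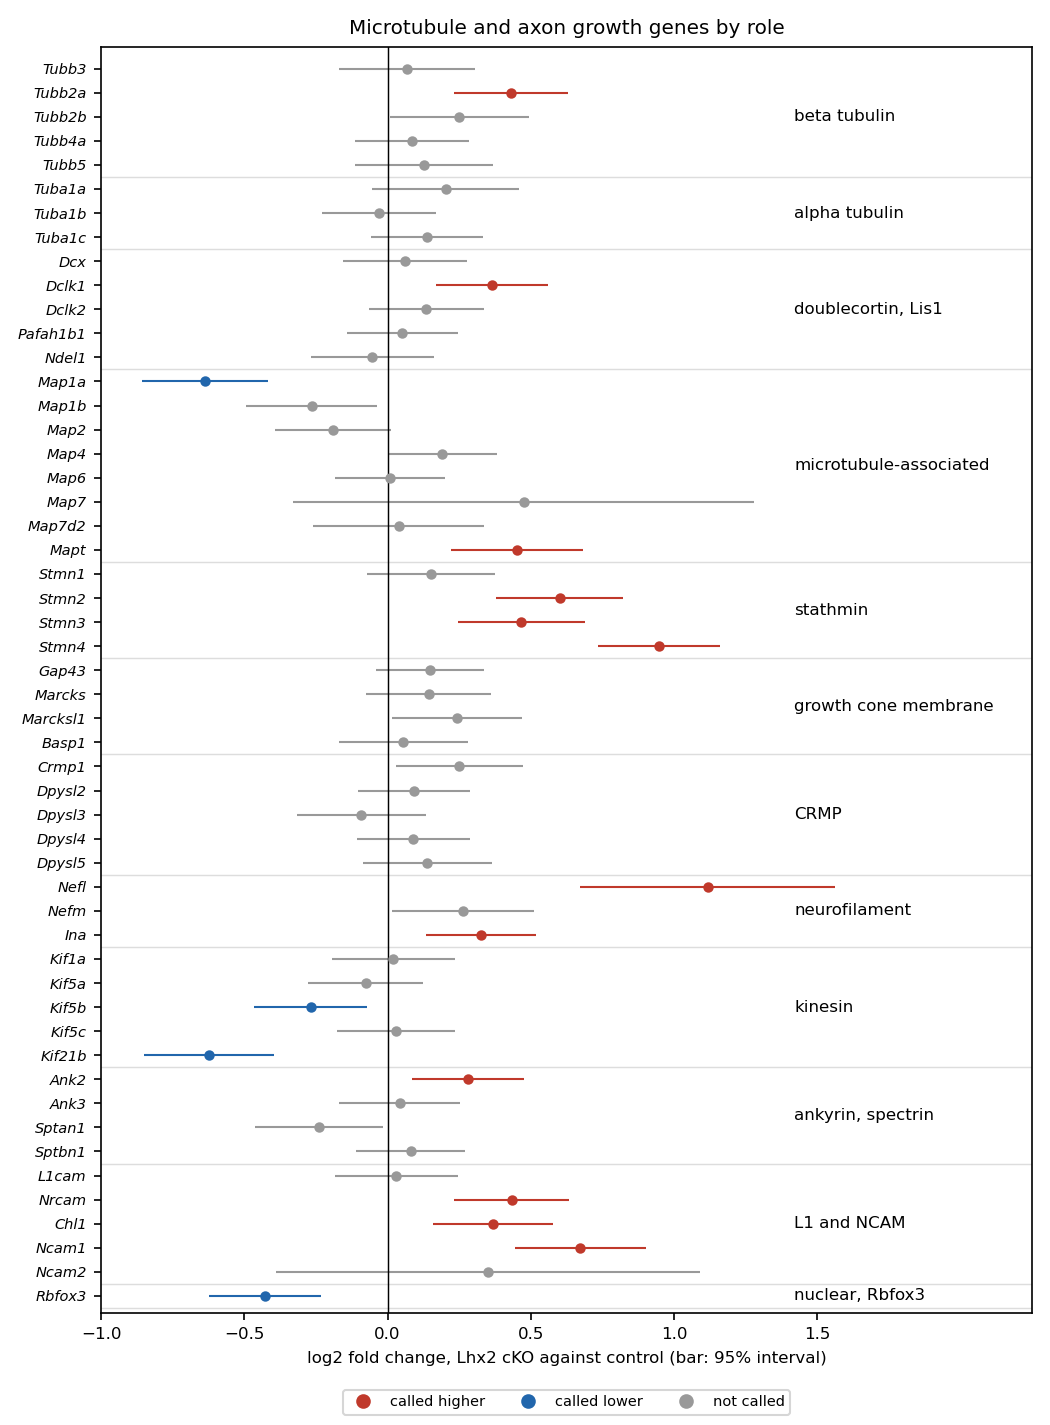
Log2 fold change (Lhx2 cKO over control) for each of the 52 genes, grouped by role, with unadjusted 95% intervals as bars. Red points are the 12 genes called higher, blue points the 4 called lower and grey points the 36 not called.

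Promoter sequences from RefSeq (GRCm38.p6) were matched by symbol for 34 of the 52 genes, among them 7 of the 12 called higher and 2 of the 4 called lower. The read counts were made on mm39, so these coordinates serve to identify the sequence and are not joined to the counts. Shown for the called genes Tubb2a, Stmn3 and Ina, which rose, and Map1a, which fell, are the 250 bases before the transcription start, each with 1 start in the table. They were chosen after their values were seen, to set promoters of called genes from different roles side by side. Capitals mark CCGCCC, the GC box bound by Sp1-type factors, the E-boxes CAGCTG and CAGATG, the TATA motif TATAAA and the homeodomain core TAATTA, searched on both strands with overlaps allowed.
Tubb2a, chr13:34078009-34078258, minus strand: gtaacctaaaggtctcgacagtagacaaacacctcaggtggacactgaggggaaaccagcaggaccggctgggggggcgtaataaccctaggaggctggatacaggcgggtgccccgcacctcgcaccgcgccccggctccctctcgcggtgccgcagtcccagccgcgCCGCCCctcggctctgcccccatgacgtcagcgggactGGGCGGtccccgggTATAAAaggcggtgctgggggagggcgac
Stmn3, chr2:181314501-181314750, minus strand: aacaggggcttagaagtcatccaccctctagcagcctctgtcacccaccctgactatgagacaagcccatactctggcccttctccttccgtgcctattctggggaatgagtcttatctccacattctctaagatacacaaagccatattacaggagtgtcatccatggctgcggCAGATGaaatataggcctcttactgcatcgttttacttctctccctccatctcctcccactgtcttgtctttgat
Ina, chr19:47014431-47014680, plus strand: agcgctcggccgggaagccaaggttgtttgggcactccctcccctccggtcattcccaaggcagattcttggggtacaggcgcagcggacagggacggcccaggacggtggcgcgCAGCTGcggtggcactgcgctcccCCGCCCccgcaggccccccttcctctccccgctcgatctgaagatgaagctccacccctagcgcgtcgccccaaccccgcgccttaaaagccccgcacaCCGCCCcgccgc
Map1a, chr2:121289352-121289601, plus strand: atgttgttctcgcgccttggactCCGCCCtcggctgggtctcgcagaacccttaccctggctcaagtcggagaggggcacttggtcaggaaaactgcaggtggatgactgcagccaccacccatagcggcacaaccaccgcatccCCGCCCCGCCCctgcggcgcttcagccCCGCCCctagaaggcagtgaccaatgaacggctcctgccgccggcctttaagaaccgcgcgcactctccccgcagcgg
The Tubb2a window held 2 GC boxes and 1 TATA motif, and had a GC content of 68.4%. The Stmn3 window held 1 CAGATG E-box and no GC box, and its GC content was 48.8%. The Ina window held 2 GC boxes and 1 CAGCTG E-box at 70.8% GC, and the Map1a window 4 GC boxes at 66.0% GC. Over the 45 windows of the 34 genes, 48.9% held a GC box, against 32.7% of all 32851 windows in the table. Among the 34 genes, 9 have more than 1 start, so their windows are not independent. The GC box holds only G and C, and the median GC content of all windows was 52.4%. The part of GC content in the GC box share was not tested. The homeodomain core was in 3 of the 45 windows (6.67%, against 4.84% of all windows), in promoters of Ank2 and Dcx. CAGCTG was in 11.1% (against 13.0%), CAGATG in 13.3% (against 14.4%) and TATAAA in 15.6% (against 12.4%). A match of letters in these windows is a description of the sequence and says nothing about binding in these cells.

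Of the 4 stathmins, 3 were called higher, where 11.6% of all genes were. The groups of libraries overlapped for none of the 4, as for the 59.3% of all genes given above. Stmn4 (ENSMUSG00000022044.15), a stathmin of the nervous system, was at 277 and 313 CPM in control and at 529 and 610 CPM in Lhx2 cKO. Both Lhx2 cKO libraries lay far above both controls, and the log2 fold change was 0.95 (SE 0.106, adjusted p 3.62e-09), the smallest p among the 52 genes. Stmn2 (ENSMUSG00000027500.11, also known as SCG10), a growth-cone stathmin, was at 602 and 653 CPM in control and at 899 and 1005 CPM in Lhx2 cKO (log2 fold change 0.60, SE 0.109, adjusted p 5.47e-05). Stmn3 (ENSMUSG00000027581.13, SCLIP), whose promoter is shown above, was at 641 and 579 CPM in control and at 783 and 902 CPM in Lhx2 cKO (log2 fold change 0.47, SE 0.11, adjusted p 0.00146). In each of these 3 genes Lhx2 cKO 2 was the higher of the Lhx2 cKO libraries. Stmn1 (ENSMUSG00000028832.12), the stathmin that cycling cells also express, was at 1041 and 1002 CPM in control and at 1099 and 1171 CPM in Lhx2 cKO and was not called (log2 fold change 0.15, 95% interval -0.07 to 0.38, adjusted p 0.363). Of the 100-base windows in its transcript, 26.1% also occur in Gm11223, so reads of these could be split between them.

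Per length, as RPKM (CPM divided by the deposited gene length in kilobases), the makeup of stathmin RNA differed between the groups. That length can far exceed the longest coding transcript in the GENCODE M21 annotation, as for Stmn2 (5602 against 2073 bases). Shares, ratios and ranks between genes, here and below, therefore depend on the length used. Stmn1 took 39.9% and 39.8% of the summed stathmin RPKM in control and 33.7% and 32.0% in Lhx2 cKO. The share of Stmn4 was 10.7% and 12.5% in the controls and 16.3% and 16.8% in Lhx2 cKO, and its ratio to Stmn1 was 0.267 and 0.314 against 0.483 and 0.523. Stmn3 kept a like share of the sum, 41.5% and 38.9% in the controls and 40.6% and 41.8% in Lhx2 cKO, where the groups overlapped. The summed stathmin RPKM was 1334 ± 33.1 (SD, n = 2) in control and 1800 ± 144 in Lhx2 cKO. With 2 libraries against 2, a two-sided exact permutation test cannot give a p below 0.333, so these shares and ratios are given without a test.

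**Figure D2:**
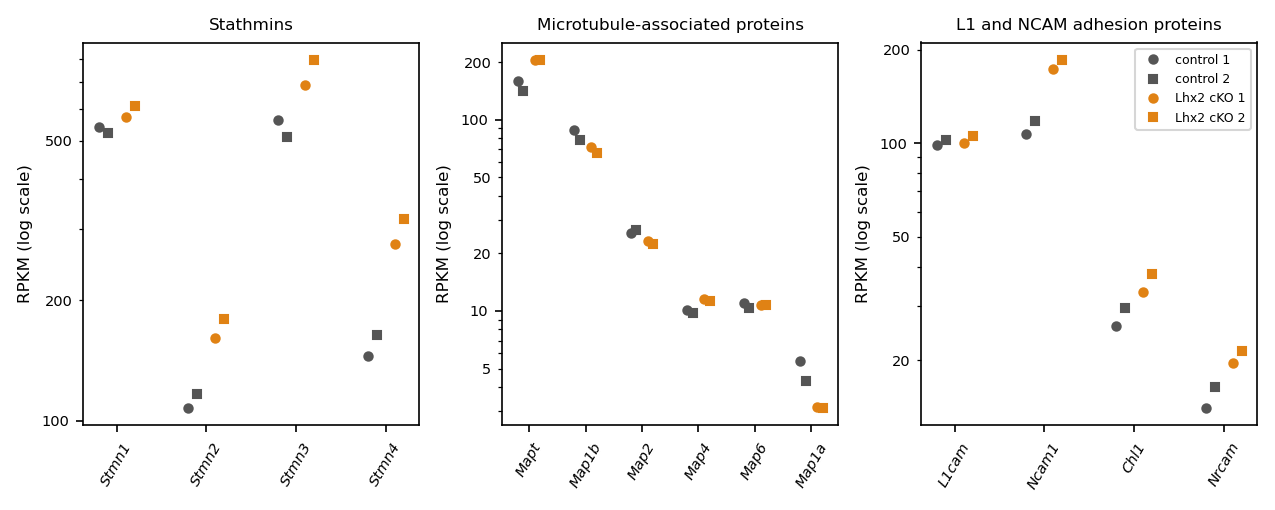
RPKM on a log scale for the stathmins, 6 of the 8 microtubule-associated proteins (Map7 and Map7d2 left out for low levels) and 4 of the 5 L1 and NCAM adhesion proteins (Ncam2 left out for its low level), 1 point per library. The called genes Stmn2, Stmn3, Stmn4, Mapt, Ncam1, Chl1 and Nrcam and the uncalled Stmn1 and Map4 sit higher in both Lhx2 cKO libraries, the called Map1a and the uncalled Map1b and Map2 sit lower, and the libraries interleave for Map6 and L1cam.

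Among the microtubule-associated proteins, Mapt was called higher and Map1a lower, while the other 6 were not called. Mapt (ENSMUSG00000018411.18) encodes tau, which binds along axonal microtubules. It was at 1197 and 1060 CPM in control and at 1545 and 1543 CPM in Lhx2 cKO (log2 fold change 0.45, SE 0.114, adjusted p 0.00301). Without control 2 its adjusted p was 0.0938. Map1a (ENSMUSG00000027254.14), a large protein better known from mature dendrites, was at 66.3 and 52.1 CPM in control and at 38.2 and 37.8 CPM in Lhx2 cKO (log2 fold change -0.64, SE 0.109, adjusted p 1.94e-05). The controls differed from each other by more than the Lhx2 cKO libraries did, and all Lhx2 cKO values lay below both. The log2 fold change of Map1a was -0.47 without control 1 and -0.80 without control 2, and it stayed called in each case.

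The close relative Map1b (ENSMUSG00000052727.7), abundant in growing axons, was at 1405 and 1239 CPM in control and at 1136 and 1064 CPM in Lhx2 cKO, with a log2 fold change of -0.26 and an adjusted p of 0.0932. The dendritic Map2 (ENSMUSG00000015222.19) was at 423 and 434 CPM in control and at 383 and 368 CPM in Lhx2 cKO (log2 fold change -0.19, adjusted p 0.185). Neither passed the threshold. Per length, the ratio of Mapt to Map1b was 1.79 and 1.80 in the controls and 2.86 and 3.05 in Lhx2 cKO, and that of Mapt to Map2 was 6.19 and 5.34 against 8.82 and 9.17. The ubiquitous Map4 had a log2 fold change of 0.19 (adjusted p 0.152) and the cold-stabilising Map6 one of 0.01 (adjusted p 0.963). Map7 and Map7d2, cofactors of kinesin-1, were low, at 1.32 to 2.57 CPM and 14.3 to 16.4 CPM over the 4 libraries. The 95% interval of Map7 ran from -0.33 to 1.28 on the log2 scale, so a 1.5-fold rise of this gene is not excluded.

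**Figure D3:**
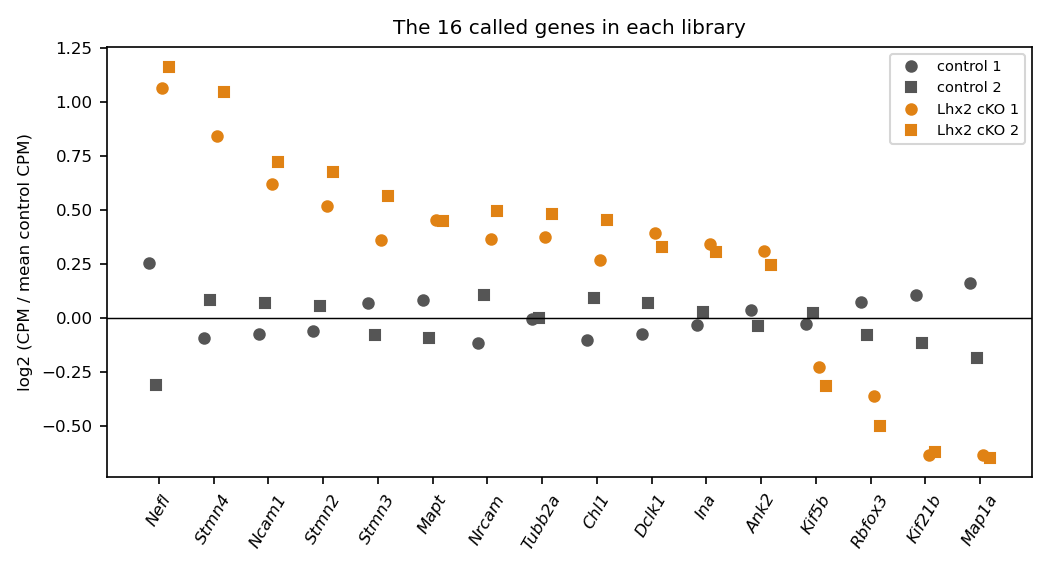
Log2 ratio of each library's CPM to the mean control CPM for the 16 called genes, ordered by fold change, with controls in grey and Lhx2 cKO in orange. The orange points lie above both grey points for 12 genes and below both for Kif5b, Rbfox3, Kif21b and Map1a.

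Of the 8 tubulins, 1 was called, where 20.8% of all genes were. Tubb2a (ENSMUSG00000058672.8), a neuronal beta tubulin, was at 273 and 274 CPM in control and at 355 and 382 CPM in Lhx2 cKO (log2 fold change 0.43, SE 0.0984, adjusted p 0.0011). Its near-copy Tubb2b (ENSMUSG00000045136.7), the second most abundant of the 52 genes per length, was at 2503 and 2469 CPM in control and at 2855 and 3059 CPM in Lhx2 cKO (log2 fold change 0.25, adjusted p 0.141). The transcripts resemble each other closely: 36.9% of the 100-base windows of the Tubb2a transcript also occur in another gene, mainly Tubb2b, so the counts of both are uncertain. Summed, Tubb2a and Tubb2b were at 2776 and 2742 CPM in control and at 3210 and 3441 CPM in Lhx2 cKO, a log2 fold change of 0.27 with an adjusted p of 0.114. The summed pair was thus not called, and how reads were divided between the copies is not given in the sources used here.

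Tuba1a (ENSMUSG00000072235.7), the main alpha tubulin of young neurons and the most abundant of the 52 genes per length, was at 4418 and 4448 CPM in control and at 4897 and 5306 CPM in Lhx2 cKO (log2 fold change 0.20, adjusted p 0.277). It made up 89.3% and 89.6% of the summed RPKM of Tuba1a, Tuba1b and Tuba1c in control and 90.4% and 90.5% in Lhx2 cKO. Between 53.4% and 69.5% of the 100-base windows of these 3 transcripts occur in other genes, so that split is uncertain too, and their summed counts had a log2 fold change of 0.19 (adjusted p 0.333). Tubb3, the beta tubulin used as a marker of neurons, overlapped between the groups, with 1953 and 1777 CPM in control and 1865 and 2043 CPM in Lhx2 cKO (log2 fold change 0.07, 95% interval -0.17 to 0.30, adjusted p 0.74). Tubb5 was at 0.13, Tubb4a at 0.09, Tuba1c at 0.14 and Tuba1b at -0.03 in log2 fold change, their adjusted p running from 0.35 to 0.868.

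In the doublecortin and Lis1 group, whose loss disturbs neuronal migration, 1 of 5 genes was called (20%, against 20.8% of all genes). Dclk1 (ENSMUSG00000027797.16), a doublecortin-like kinase, was at 180 and 198 CPM in control and at 248 and 238 CPM in Lhx2 cKO (log2 fold change 0.36, SE 0.0963, adjusted p 0.00488). Without control 1 its adjusted p was 0.114. Dcx, doublecortin itself, was at 652 and 746 CPM in control and at 717 and 741 CPM in Lhx2 cKO, where both Lhx2 cKO values fell between the controls (log2 fold change 0.06, 95% interval -0.16 to 0.28, adjusted p 0.746). Dclk2 was at 0.14, Pafah1b1, which encodes the dynein regulator Lis1, at 0.05, and its partner Ndel1 at -0.05 in log2 fold change, their adjusted p running from 0.368 to 0.776.

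None of the 9 growth cone membrane and CRMP genes was called by edgeR, against 20.8% of all genes. In that test 2 of the 9 had an unadjusted p under 0.05, as had 4253 of all 13288 genes. Estimates were above 0 for 8 of the 9, and for 6704 of the 13288. Gap43 (ENSMUSG00000047261.10), the textbook growth cone protein, was at 119 and 115 CPM in control and at 126 and 133 CPM in Lhx2 cKO (log2 fold change 0.15, 95% interval -0.04 to 0.34, adjusted p 0.288). Marcksl1, a membrane and actin-binding relative of Marcks, had the largest estimate of its group, from 1208 and 1183 CPM to 1359 and 1470 CPM (log2 fold change 0.24, adjusted p 0.126). Marcks was at 0.14 and Basp1 at 0.06 on the log2 scale. CRMPs relay semaphorin signals to microtubules. Crmp1 had the largest estimate among them, from 923 and 972 CPM in control to 1109 and 1145 CPM in Lhx2 cKO (log2 fold change 0.25, adjusted p 0.104). Dpysl3, the most abundant of them per deposited length in control at 192 RPKM, was at -0.09, and Dpysl2, Dpysl4 and Dpysl5 lay between 0.09 and 0.14. That rank depends on the length used, since Crmp1 has a deposited length of 7046 bases but a longest coding transcript of 3051. DESeq2, which called fewer genes in all, called Crmp1, Marcksl1, Tubb2b and Map1b.

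Of the 3 neuronal intermediate filament genes, Nefl and Ina were called higher (66.7%, against 11.6% of all genes called higher). Nefl (ENSMUSG00000022055.8), the light chain, had the largest fold change of the 52 genes, from 4.91 and 3.32 CPM in control to 8.61 and 9.23 CPM in Lhx2 cKO (log2 fold change 1.12, SE 0.22, adjusted p 1.80e-04). The controls differed, and the estimate was 1.41 without control 1 and 0.86 without control 2. Ina (ENSMUSG00000034336.4), alpha-internexin, the filament of early neurons, was at 210 and 219 CPM in control and at 272 and 266 CPM in Lhx2 cKO (log2 fold change 0.33, SE 0.0955, adjusted p 0.0111). Its adjusted p was 0.116 without control 1 and 0.0605 without Lhx2 cKO 1. Nefm was at 28.0 and 22.0 CPM in control and at 29.0 and 31.1 CPM in Lhx2 cKO (log2 fold change 0.26, adjusted p 0.127). Ina took 91.1% and 93.4% of the summed RPKM of the 3 genes in control and 91.7% and 91.0% in Lhx2 cKO. In the GENCODE M21 annotation the exons of Nefl share 1108 bases, 32.8% of its exon length, with those of Nefm on the other strand, and Ina shares 14.1% with Nt5c2. Whether strand was used in counting is not given in the sources used here, so the counts of these genes are uncertain.

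Among the 5 kinesins, 2 were called, both lower (40%, against 9.17% of all genes called lower). Kif21b (ENSMUSG00000041642.19), a kinesin that limits microtubule growth and moves slowly along the polymer, was at 1271 and 1091 CPM in control and at 762 and 770 CPM in Lhx2 cKO (log2 fold change -0.62, SE 0.112, adjusted p 4.34e-05). It stayed called without any of the 4 libraries in turn, with estimates from -0.73 to -0.52. Per length it was the most abundant of the 5 kinesins in control, with 34.2% and 31.6% of their summed RPKM. In Lhx2 cKO it held 24.8% and 24.0%, below Kif1a in both libraries, and its ratio to Kif1a went from 1.45 and 1.38 to 0.944 and 0.870. That order in Lhx2 cKO depends on the deposited lengths, 12184 bases for Kif21b and 9330 for Kif1a. Their longest coding transcripts have 9115 and 8206 bases. Kif5b (ENSMUSG00000006740.15), the ubiquitous kinesin-1 heavy chain, was at 75.6 and 78.3 CPM in control and at 65.7 and 61.9 CPM in Lhx2 cKO, a log2 fold change of -0.27 (SE 0.0981) at the edge of the threshold (adjusted p 0.0451). Its call was lost under 3 alternatives that kept all libraries, namely library totals (adjusted p 0.0571), a mean count of at least 50 (0.051) and DESeq2 (0.0671), and without each of the 4 libraries in turn, with adjusted p from 0.0713 to 0.267. Kif1a, which carries synaptic vesicle precursors, and the neuronal kinesin-1 chains Kif5a and Kif5c were at 0.02, -0.08 and 0.03 in log2 fold change, their adjusted p running from 0.649 to 0.922.

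Of the ankyrins and spectrins, which form the submembrane skeleton of the axon, Ank2 (ENSMUSG00000032826.20) was called higher, from 252 and 239 CPM in control to 304 and 291 CPM in Lhx2 cKO (log2 fold change 0.28, SE 0.0968, adjusted p 0.0339). Without any one of the 4 libraries the call was lost, with adjusted p from 0.0772 to 0.187. Ank3, the ankyrin of the axon initial segment, overlapped between groups at 605 to 663 CPM (log2 fold change 0.04, adjusted p 0.827). Sptan1, alpha-II spectrin, was at 898 and 851 CPM in control and at 795 and 686 CPM in Lhx2 cKO (log2 fold change -0.24, adjusted p 0.121), and its partner Sptbn1 was at 0.08 (adjusted p 0.603).

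Of the 5 L1 and NCAM adhesion genes, 3 were called, all higher (60%, against 11.6% of all genes called higher). Ncam1 (ENSMUSG00000039542.17), the neural cell adhesion molecule, was at 926 and 1023 CPM in control and at 1498 and 1608 CPM in Lhx2 cKO (log2 fold change 0.67, SE 0.114, adjusted p 1.67e-05). Every Lhx2 cKO library was well above both controls, and the estimate ranged from 0.59 to 0.75 when 1 library was left out. Nrcam (ENSMUSG00000020598.17) was at 188 and 218 CPM in control and at 262 and 286 CPM in Lhx2 cKO (log2 fold change 0.43, SE 0.0994, adjusted p 0.00118). Chl1 (ENSMUSG00000030077.12), the close homolog of L1, was at 316 and 362 CPM in control and at 409 and 465 CPM in Lhx2 cKO (log2 fold change 0.37, SE 0.104, adjusted p 0.00854). Without control 1 the adjusted p was 0.0745 for Nrcam and 0.201 for Chl1, and without Lhx2 cKO 2 that of Chl1 was 0.15.

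L1cam, the founding member of the family, overlapped between the groups at 723 and 754 CPM in control and at 734 and 774 CPM in Lhx2 cKO (log2 fold change 0.03, 95% interval -0.18 to 0.25, adjusted p 0.88). Per length, Ncam1 stood at 1.09 and 1.15 times L1cam in control and at 1.73 and 1.76 times in Lhx2 cKO. Ncam2 was low, at 1.40 to 3.18 CPM over the 4 libraries, and its 95% interval of -0.39 to 1.09 on the log2 scale does not exclude a 1.5-fold rise. For 34 of the 36 genes not called, Map7 and Ncam2 excepted, the unadjusted 95% interval lay within a 1.5-fold change in either direction.

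Rbfox3 (ENSMUSG00000025576.18), the splicing regulator detected by the NeuN antibody in postmitotic neurons, fell while several cytoskeletal genes of neurons rose. It was at 250 and 225 CPM in control and at 185 and 168 CPM in Lhx2 cKO (log2 fold change -0.43, SE 0.0974, adjusted p 0.00106), and stayed called without each of the 4 libraries in turn (largest adjusted p 0.0307).

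Gene length moved with the fold changes in a small way. Over all genes the median log2 fold change was 0.07 for genes up to 2000 bases long and -0.06 for those over 12000 bases. The share of genes called lower was 5.53% in the first class and 15.7% in the second, while the share called higher was 12.5% and 12.7%. Map1a and Kif21b, with 12166 and 12184 bases, fall in the longest class, and their changes of -0.64 and -0.62 stand beside its median of -0.06. That class holds 13 of the 52 genes, of which 4 were called higher, Dclk1, Ank2, Nrcam and Chl1, and 2 lower. Across the 52 genes Spearman's rho of length and log2 fold change was -0.23, and across all 13288 genes -0.10. Genes share the same 4 libraries and are not independent, and the part of length in these changes was not tested.

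**Figure D4:**
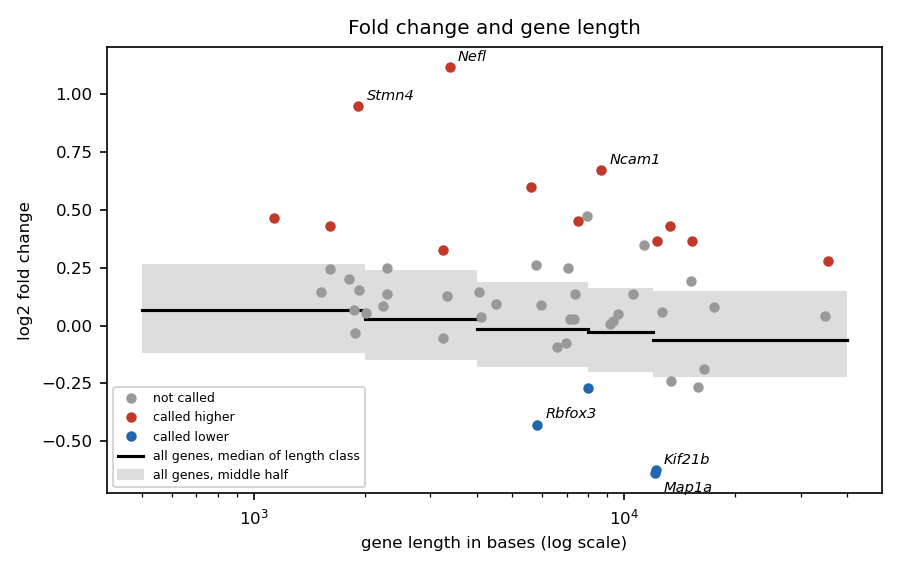
Log2 fold change against the deposited gene length in bases (log scale) for the 52 genes, over the median and interquartile range of all genes in 5 length classes. Map1a and Kif21b lie below the interquartile range of the longest class, and Stmn4, Nefl and Ncam1 above those of their own classes.

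The 7 lists of partner genes of the same machinery included 111 measured genes, with a median log2 fold change of -0.05. They were written from general knowledge but with earlier results of these data known, so the shares below are descriptions only. Of these, 5 were called higher (4.50%, against 11.6% of all genes) and 16 lower (14.4%, against 9.17%), in all 18.9% against 20.8%. The counts for single lists below, of partner genes and of markers, are to be read beside the same shares of all genes. Of 20 further motor genes, 1 was called higher and 5 lower. Dync1i1, a dynein intermediate chain, was at 72.5 and 84.9 CPM in control and at 117 and 122 CPM in Lhx2 cKO, a log2 fold change of 0.60 (adjusted p 9.55e-06). Kif26b was at 60.6 and 54.6 CPM in control and at 23.2 and 23.6 CPM in Lhx2 cKO, a log2 fold change of -1.30 (adjusted p 1.74e-12), and Nde1, the Lis1 partner of dividing progenitors, was at -0.55. Of 22 genes of the growth cone and of actin, not all of which encode actin-binding proteins, 2 were called higher and 4 lower. The 4 with the smallest p were Cap2 at -1.19, Rtn4r at 0.64, Tmsb4x at -0.56 and Pfn1 at -0.39. Tmsb4x, which encodes an actin-sequestering thymosin, went from 2649 and 2379 CPM to 1668 and 1741 CPM.

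In the list of other membrane skeleton and adhesion genes, 1 of 15 measured was called higher and 3 lower. Cntn1, a contactin that pairs with L1-type molecules, was at 19.2 and 23.0 CPM in control and at 37.3 and 48.1 CPM in Lhx2 cKO, a log2 fold change of 1.02 (adjusted p 2.29e-08). Sptb was at -0.96, Cntnap2 at -0.46 and Ank1 at -0.34. The controls of Sptb differed, at 16.4 and 7.56 CPM, beside 5.85 and 6.44 CPM in Lhx2 cKO. Sptb and Ank1 belong to the red cell membrane skeleton, and the red blood cell list of markers had 5 of 6 measured genes called lower and 1 higher. The part of red cells in the changes of Sptb and Ank1 was not tested. Of 16 genes for tau and MAP kinases, their activators and scaffolds, 0 were called higher and 2 lower. These were Brsk1 and Brsk2, which polarise axons, both at -0.32. The controls of Brsk1 differed, at 245 and 186 CPM, beside 163 and 182 CPM in Lhx2 cKO. Brsk2 was at 300 and 291 CPM in control and at 246 and 228 CPM in Lhx2 cKO. Of 16 genes for microtubule ends and severing, Mapre2, an end-binding protein, was called higher at 0.44 and 0 lower. Vash1, a tubulin detyrosinase, at -0.42 was the only call among 15 genes of tubulin folding and modification. Its controls differed, at 68.7 and 46.1 CPM, beside 43.3 and 42.6 CPM in Lhx2 cKO. Tuba4a at -0.85 was the only call among 7 other tubulins.

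Lists of markers of neurons and of other cells differed in how many genes were called and in which direction. In bulk tissue, fewer cells of a type and less RNA per cell cannot be told apart. The 10 pan-neuronal genes summed to 5963 and 5568 CPM in control and to 6054 and 6636 CPM in Lhx2 cKO, with a median log2 fold change of -0.09, 3 called higher, among them Syt1 and Nsg1, and 2 lower, Elavl4 and Rbfox1. The 10 projection neuron genes summed to 3067 and 2919 CPM against 2829 and 2827 CPM, with 0 called higher and Neurod6 called lower. The 12 interneuron genes summed to 396 and 352 CPM against 524 and 508 CPM, with 5 called higher and 0 lower, and the 7 measured Cajal-Retzius genes to 349 and 378 CPM against 503 and 636 CPM, with 4 higher and 0 lower.

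Cell cycle and intermediate progenitor markers were mostly called lower, while radial glia markers were called in both directions. The 10 cell cycle genes summed to 404 and 456 CPM in control and to 271 and 269 CPM in Lhx2 cKO, with 9 called lower, and the 8 intermediate progenitor genes to 957 and 956 CPM against 611 and 657 CPM, with 6 called lower. The 11 radial glia genes summed to 786 and 846 CPM against 810 and 790 CPM, with 2 called higher and 3 lower. The 8 microglia genes summed to 116 and 117 CPM against 232 and 259 CPM, with 7 called higher. The oligodendrocyte precursor list had 5 of 6 called higher, the astrocyte list 4 of 6 and the vascular and meningeal list 5 of 9, with 2 lower. None of the 105 marker genes measured was at 0 in any library. The part of any of these cell types in the changes of the 52 genes was not tested.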

How the data were processed

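Counts of 2 control and 2 Lhx2 cKO libraries were used as deposited by the authors: whole reads per gene, not normalized. Trim Galore, Subread, featureCounts and edgeR and the build mm39 are named in the submitters' processing notes, while versions, annotation, strand and treatment of reads with several matches are not given in the sources used here. The authors' deposited log2 fold change, p-value and adjusted p-value were copied for comparison, and the deposited -log10 column was not used further. The authors' gene length gave RPKM.

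edgeR 4.0.16 in R 4.3.3 was run on all 13289 genes with TMM (factors 0.973 to 1.02) and filterByExpr (minimum 10 counts, 13288 genes kept), with glmQLFit and glmQLFTest, two-sided, Benjamini-Hochberg adjusted. The script was tested on simulated data. A floor of 3 counts equals 0.122 to 0.135 CPM, for counting error only. The SE is the absolute log2 fold change over the square root of F, and 95% intervals use it unadjusted. The common biological coefficient of variation was 8.27%. The prior degrees of freedom were 38.7, so the SE and p of each gene rest largely on dispersion pooled over genes. The members and lists were chosen with earlier results of these data known. Named in full were all called members, and from other lists up to 4 called genes by smallest p. Shared windows of 100 bases and exon overlaps came from GENCODE M21. Alternatives were RLE factors, library totals, no filter, a mean count of at least 50, a replicate block, DESeq2 1.42.0, limma-voom 3.58.1, summed tubulin copies and leaving out each library.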

Additional observations from a re-analysis of the deposited data

How the results depend on the processing

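None of the 16 called genes, nor Lhx2, nor the median of the 52 genes changed direction under any alternative run. With all libraries kept, 15 or 16 of the 16 calls were shared under each scaling, filter and test; Kif5b was lost with library totals, a mean count of at least 50 and DESeq2, and Tubb2a when summed with Tubb2b. Over all genes, the deviations of replicate 1 from 2 had a correlation of -0.0052 between the groups. That single value cannot settle whether libraries with the same number were paired, since a shared effect may touch few genes. Adding the replicate block gave 2874 calls over all genes, against 2758, and the same 16 of the 52. DESeq2 called 2170 genes, and 15 higher and 4 lower among the 52.

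Leaving out 1 library leaves 1 in its group, which is then assumed to vary like the other group. The number of genes called in all ranged from 1633 (without Lhx2 cKO 2) to 2396 (without Lhx2 cKO 1), and was 1790 without control 1. Among the 52 genes 8 to 10 were called higher and 3 lower, the fewest without control 1, and their median log2 fold change ranged from 0.094 (without Lhx2 cKO 2) to 0.148. Lhx2 ranged from -0.376 to -0.250. Calls held in all 4 such fits for 9 of the 16 genes, and 7 lost theirs in at least 1. Fewer libraries by themselves lower the number of calls. Since the groups did not overlap for the 16 genes, a kept direction says little about stability.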
